A study of Mus musculus with 8 samples.

Results

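Sonic hedgehog signalling in the embryonic neural tube was examined through 9 genes of mouse, namely the ligand gene Shh, the receptor and inhibitor genes Ptch1, Smo and Hhip, the transcription factor genes Gli1, Gli2 and Gli3, and the ventral progenitor genes Nkx2-2 and Olig2. They were taken by name from the pathway and from the ventral cell fates it sets, with earlier results of these data known. All 9 were found among the 24420 gene symbols of the total RNA counts, and 5 of them (Shh, Ptch1, Smo, Hhip and Gli3) among the 5804 of the polysomal counts. Gli1, Gli2, Nkx2-2 and Olig2 were not analysed here in polysomal RNA.

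Total RNA and polysomal RNA, the messages loaded with several ribosomes, were sequenced from brain or neural tube of E11.5 mouse embryos, in a study of Lin28 and protein synthesis in neural progenitors. The 4 groups were polysomal RNA of Lin28a-/-;b-/- embryos (double knockout, dKO), total RNA of dKO embryos, polysomal RNA of wildtype (WT) embryos and total RNA of WT embryos, with 2 libraries each. The sample labels name the tissue as brain, and the growth protocol names neural tube. The labels name no deleter strain, no litter and no embryo for a library, so that p-values reflect only the spread among these libraries, which may be technical. The Lin28 proteins bind RNA, hold back the processing of let-7 microRNAs and also attach to many messenger RNAs.

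Sonic hedgehog is secreted by the notochord and the floor plate at the ventral midline. It binds Patched1, which otherwise holds the membrane protein Smoothened inactive, and active Smoothened turns the Gli proteins toward transcriptional activation at the primary cilium. Ptch1, Hhip and Gli1 are themselves switched on by the pathway, and in the spinal cord high and intermediate signal set the Nkx2-2 and Olig2 progenitor domains, whose cells give rise to V3 interneurons and to motor neurons and oligodendrocytes.

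In total RNA, Ptch1, Hhip and Gli1, which the pathway itself turns on, were higher in dKO embryos, while the ligand gene was lower. Smo and Gli2 rose as well, Olig2 fell with Shh, and Gli3 and Nkx2-2 did not pass the test. The changes were small, between 1.18-fold higher for Smo and 1.41-fold higher for Hhip among the rises, with Shh at 0.816 and Olig2 at 0.792 times the WT level. Thus 7 of 9 genes were called, 5 higher and 2 lower, where 30.7% of the 14594 genes tested were called, 14.7% higher and 16% lower (edgeR quasi-likelihood test, Benjamini-Hochberg adjusted p under 0.05). Since the 9 genes were chosen with earlier results of these data known, their share cannot be weighed against that of all genes. The median absolute log2 fold change of all called genes was 0.34, and the median log2 fold change of all tested genes was 0.003. Only Ptch1 and Smo were called under each of the 12 alternatives run on them, which include DESeq2 and each library left out in turn.

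**Figure D1:**
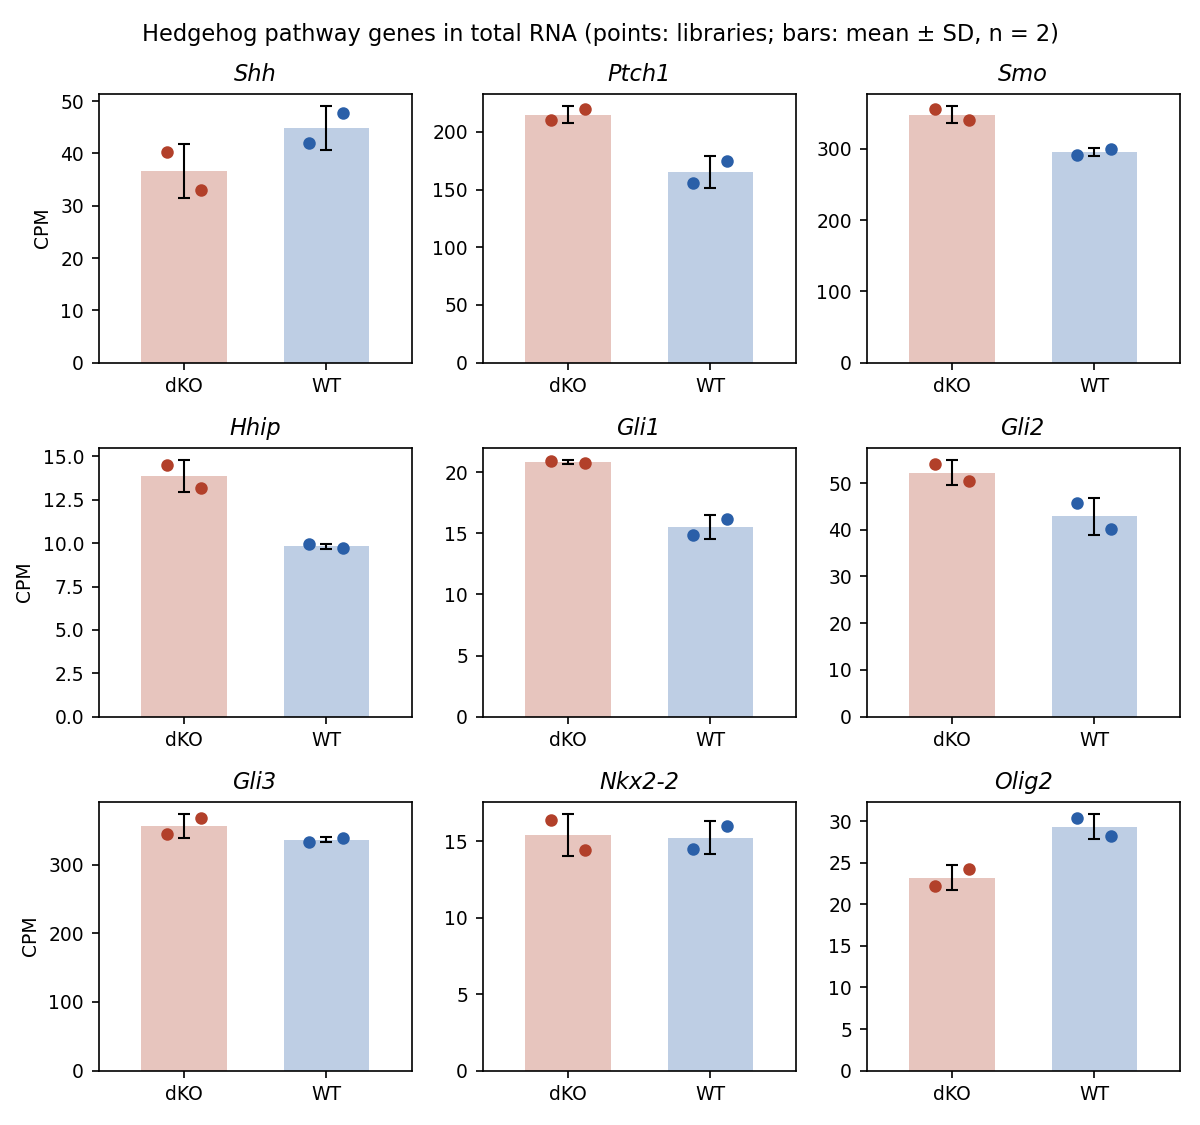
Levels of the 9 genes in total RNA in CPM (reads scaled to a common library size), dKO left and WT right; points are libraries and bars the mean ± SD of 2 libraries. The dKO libraries lie above the WT libraries for 6 genes and below them for Shh and Olig2, and the genotypes overlap for Nkx2-2. The share of all genes without overlap was not counted, so this order is a description only.

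Shh, which encodes the ligand, had 40.2 and 32.9 CPM in dKO total RNA, against 41.9 and 47.8 CPM in WT total RNA. Both dKO libraries lay below both WT libraries, though the first dKO library was within 2 CPM of the first WT library. The log2 fold change was -0.29 ± 0.10 (SE; edgeR adjusted p = 0.0121). It depended on single libraries: the value was -0.16 without dKO replicate 2 (adjusted p = 0.384) and -0.20 without WT replicate 2 (adjusted p = 0.254), against -0.45 without dKO replicate 1. In DESeq2 the adjusted p was 0.0886. In bulk tissue, fewer cells of a type and less RNA per cell cannot be told apart, which holds for this and each later difference.

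Ptch1, the gene of the Shh receptor and a direct target of the pathway, had 210 and 220.0 CPM in dKO total RNA and 155 and 175 CPM in WT total RNA. The genotypes did not overlap. Its log2 fold change was 0.38 ± 0.05 (edgeR adjusted p = 1.27e-14) and stayed between 0.29 and 0.47 over the 12 alternatives. Smo, the gene of the signal transducer that Patched1 holds back, had 356 and 339.9 CPM in dKO embryos and 292 and 300.2 CPM in WT embryos, again without overlap. Its log2 fold change was 0.23 ± 0.04 (edgeR adjusted p = 4.73e-09), with a range of 0.20 to 0.27 over the alternatives. Hhip, which encodes a membrane protein that binds and sequesters hedgehog ligands, was the lowest of the 9 genes in CPM per kilobase of exon and had 14.5 and 13.2 CPM in dKO embryos and 9.94 and 9.73 CPM in WT embryos. The log2 fold change of Hhip, 0.49 ± 0.17, was the largest of the 9 genes and its edgeR adjusted p was 0.0162. That call was absent without dKO replicate 1 (0.42, adjusted p = 0.164), without WT replicate 1 (0.51, adjusted p = 0.0524), without WT replicate 2 (0.48, adjusted p = 0.0662) and in DESeq2 (adjusted p = 0.0821).

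Of the Gli genes, Gli1 encodes an activator whose transcription needs hedgehog signal and is commonly read as its output. It had 20.9 and 20.7 CPM in dKO total RNA and 14.8 and 16.2 CPM in WT total RNA. The libraries of the genotypes were well apart, and the log2 fold change was 0.43 ± 0.14 (edgeR adjusted p = 0.0109). The test no longer passed without dKO replicate 1 (adjusted p = 0.0751), dKO replicate 2 (adjusted p = 0.0594) or WT replicate 1 (adjusted p = 0.108), while the log2 fold change stayed between 0.36 and 0.49. The DESeq2 adjusted p was 0.0619.

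Gli2, the main activator that the signal acts on first, had 54.1 and 50.4 CPM in dKO embryos and 45.7 and 40.1 CPM in WT embryos. The genotypes did not overlap, and the log2 fold change was 0.28 ± 0.09 (edgeR adjusted p = 0.00883). It was 0.23 without dKO replicate 1 (adjusted p = 0.142) and 0.19 without WT replicate 2 (adjusted p = 0.217), and the DESeq2 adjusted p was 0.0562. Gli3, which acts mostly as a repressor where there is no ligand, was at a high level in all libraries, 344 and 368 CPM in dKO embryos and 334 and 339 CPM in WT embryos. The dKO libraries were above the WT libraries by a log2 fold change of only 0.08 ± 0.04 (95% interval 0.01 to 0.15), which did not pass (edgeR adjusted p = 0.0624). It passed without dKO replicate 1 (0.13, adjusted p = 0.0243) and with a minimum mean of 5 CPM (adjusted p = 0.0415). In the counts of each library, which need no scaling, Gli1 reads per Gli3 read were 0.0608 and 0.0563 in dKO embryos and 0.0445 and 0.0478 in WT embryos.

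Neither ventral progenitor gene rose. Olig2, which marks progenitors of motor neurons and oligodendrocytes, had 22.1 and 24.3 CPM in dKO embryos, below the 30.4 and 28.3 CPM of WT embryos. Its log2 fold change was -0.34 ± 0.12 (edgeR adjusted p = 0.0183), and it lost the call without dKO replicate 1 (-0.27, adjusted p = 0.184), without WT replicate 1 (-0.29, adjusted p = 0.143) and in DESeq2 (adjusted p = 0.0793). Nkx2-2, the gene of the more ventral progenitor domain next to the floor plate, had 16.4 and 14.4 CPM in dKO embryos and 14.5 and 16.0 CPM in WT embryos. Its libraries overlapped, and the interval of its log2 fold change of 0.02 ran from -0.28 to 0.31 (edgeR adjusted p = 0.957), so that differences as large as those of Gli2 or Shh lay within it or at its edge. No alternative called Nkx2-2.

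**Figure D2:**
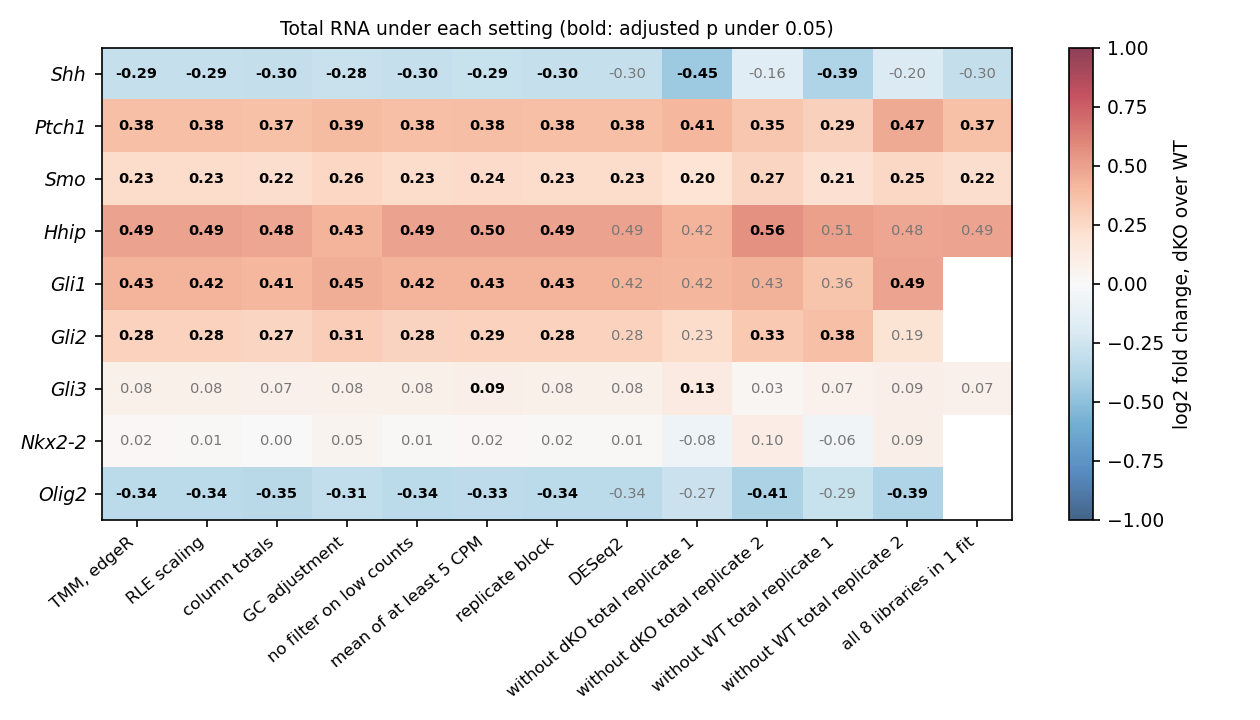
Log2 fold change of each gene in total RNA (dKO over WT) under each alternative, with bold values where the adjusted p was under 0.05; empty cells are genes outside that fit. Ptch1 and Smo are bold in every column, while Shh, Hhip, Gli1, Gli2 and Olig2 keep their direction and are bold in some columns only.

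The balance between ligand and response can be read inside each library, where no scaling enters. For each Shh read in total RNA there were 0.521 and 0.630 Gli1 reads in dKO embryos, against 0.354 and 0.339 in WT embryos. Ptch1 reads per Shh read were 5.22 and 6.68 in dKO embryos, against 3.71 and 3.66 in WT embryos, and Hhip reads per Shh read were 0.361 and 0.401 in dKO embryos, against 0.237 and 0.204 in WT embryos. In these 3 ratios both dKO libraries were above both WT libraries. The same held for Nkx2-2, which did not itself pass, at 0.407 and 0.438 reads per Shh read in dKO and 0.345 and 0.335 in WT. It also held for Gli3 (8.56 and 11.2 in dKO, 7.96 and 7.10 in WT) and Smo (8.86 and 10.3 in dKO, 6.97 and 6.28 in WT). Since Shh is the denominator of each ratio, its own decrease enters all of them. The ratios thus do not set the response genes apart from the others.

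Levels were compared between genes as CPM per kilobase of exon, over the merged exons of each gene. In dKO total RNA the order from high to low was Smo (61.9), Gli3 (37.1), Ptch1 (15.1), Shh (12.8), Olig2 (9.18), Gli2 (7.605), Nkx2-2 (5.35), Gli1 (4.17) and Hhip (1.53 CPM per kilobase), and no neighbours overlapped between libraries. In WT total RNA it was Smo (52.7), Gli3 (35.1), Shh (15.8), Ptch1 (11.6), Olig2 (11.6), Gli2 (6.25), Nkx2-2 (5.30), Gli1 (3.11) and Hhip (1.08), where only Ptch1 and Olig2 overlapped. The place of Ptch1 depended on the length used, since its merged exons are much longer than its longest coding transcript. Per kilobase of that transcript, a length chosen after the data were seen, Ptch1 stood above Shh in both genotypes, at 27.8 against 12.8 CPM in dKO and 21.4 against 15.8 CPM in WT.

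The genotype labels were checked on the targeted genes. Lin28a had 103 and 120 reads in dKO total RNA, against 1151 and 1091 in WT total RNA, and Lin28b had 755 and 855 reads in dKO, against 2014 and 1852 in WT. Both were lower in dKO, but Lin28b kept 0.411 and Lin28a 0.0982 of the WT level, so reads of both targeted genes were still counted. Which exons were deleted is not given in the sources used here, and reads outside them would not check the labels. Total RNA libraries held 15060560 to 15768767 counts. Summed neural progenitor markers stood at 3347 to 3369 CPM in dKO embryos and 3719 to 3751 CPM in WT embryos (1 of 7 genes higher, 3 lower). Summed neuron markers stood at 3039 to 3043 CPM in dKO and 3039 to 3075 CPM in WT (1 of 5 higher, 1 lower). Of all genes tested, 14.7% were higher and 16% lower.

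Tissue next to the neural tube can also express hedgehog genes, and several of its markers were lower in dKO libraries. Of the notochord markers, T, a transcription factor gene of the notochord, which is itself a source of Shh, had 1 and 0 reads in dKO embryos and 11 and 6 reads in WT embryos, and Noto was at 0 in all 4 libraries. Markers of sclerotome and mesenchyme, where Shh induces Ptch1 and Gli1, summed to 182 to 192 CPM in dKO and 233 to 249 CPM in WT, with 2 of 6 tested genes lower (Col2a1, -0.82, and Twist1, -0.52). Red cell markers summed to 367 to 375 CPM in dKO and 792 to 799 CPM in WT, with 3 of 3 lower. Markers of foregut and epithelium summed to 13.96 to 14.5 CPM in dKO and 10.05 to 12.5 CPM in WT (1 of 4 tested genes higher), while 0 of 3 neural crest and 0 of 3 endothelium markers were called. These lists are short, and of all genes tested 14.7% were higher and 16% lower. The part of these tissues in the differences above was not tested.

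Genes that release, carry or receive the ligand changed in both directions in total RNA: of 16 tested, 4 rose (25%, against 14.7% of all genes) and 5 fell (31.3%, against 16% of all genes), with a median log2 fold change of -0.09. Of the co-receptor genes on the list, Cdon, Boc and Gas1 rose and Lrp2, named after its value was seen, was at 0.12 and did not pass (edgeR adjusted p = 0.431). Cdon had 200.4 and 195 CPM in dKO embryos and 162 and 153 CPM in WT embryos (log2 fold change 0.33 ± 0.05), Boc, like Cdon a cell-surface protein that binds Shh, rose by 0.27 ± 0.05, and Gas1, a membrane-anchored co-receptor, by 0.17 ± 0.04. These 3 were called under each of the 11 alternatives run on them, with edgeR adjusted p-values between 8.27e-11 and 4.11e-05. Ptchd1, a gene related to Ptch1 by sequence, also rose (0.53 ± 0.19, edgeR adjusted p = 0.0225), but kept the call in 8 of 11 alternatives.

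Several extracellular factors of the list fell. Scube3, a secreted protein that can aid release of lipid-bearing Shh, had 24.3 and 21.8 CPM in dKO embryos and 41.4 and 43.0 CPM in WT embryos, a log2 fold change of -0.87 ± 0.11 (edgeR adjusted p = 6.91e-14). Scube1 of the same family fell by 0.65 ± 0.07, the glypican genes Gpc3 and Gpc4 by 0.51 ± 0.09 and 0.33 ± 0.07, and the heparan sulfate 6-O-endosulfatase gene Sulf2 by 0.35 ± 0.05. These 5 genes were called under all 11 alternatives. Their relatives on the list did not pass: Scube2 was at -0.13 (edgeR adjusted p = 0.701), Gpc6 at -0.06 (adjusted p = 0.559) and Sulf1 at -0.17 (adjusted p = 0.054), all 3 named after their values were seen. Disp1, which exports the ligand, did not pass (0.08, edgeR adjusted p = 0.657). The other hedgehog ligand genes were below the filter, with 3 to 7 reads of Ihh in dKO and 0 to 7 in WT, and 0 to 13 reads of Dhh in dKO and 8 to 9 in WT.

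Of the 27 tested genes that relay the signal or act on Gli proteins, 5 rose (18.5%) and 6 fell (22.2%), with a median of 0.02, against 14.7% and 16% of all genes. The rises included Zic2 (0.34 ± 0.06) and Zic1 (0.14 ± 0.04), whose zinc finger proteins can bind Gli proteins, Spop (0.24 ± 0.04), an adaptor for the breakdown of Gli2 and Gli3, and Gsk3b (0.14 ± 0.02), a kinase of Gli proteins. All 5 rises were called under all 11 alternatives. Among the falls, Ptpn13 (-0.30 ± 0.08) held under all 11, whereas the count of genes lower was 3 by DESeq2 and 2 without dKO replicate 2. Of the falls, Efcab7 (-0.69 ± 0.22) and Evc2 (-0.38 ± 0.14), of the complex that passes on Smo activity near the base of the cilium, were called in 8 of 11, and Stk36 (-0.41 ± 0.12) in 10 of 11. Other genes of that complex on the list, named after their values were seen, were at 0.27 for Evc (edgeR adjusted p = 0.0651) and 0.07 for Iqce (adjusted p = 0.801). Sufu, the cytoplasmic inhibitor of Gli proteins (-0.13, edgeR adjusted p = 0.157), and Kif7, a ciliary kinesin of the pathway (-0.04, adjusted p = 0.91), did not pass.

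**Figure D3:**
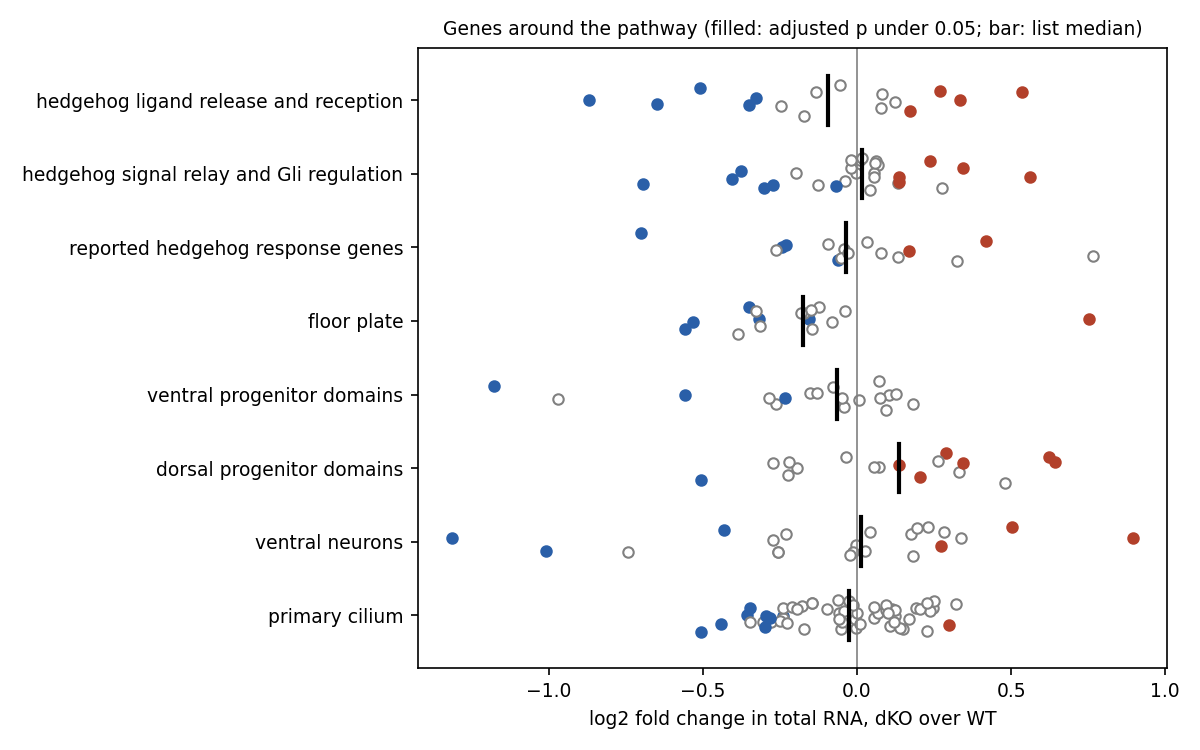
Log2 fold changes in total RNA (dKO over WT) of genes around the pathway, by list; each point is a gene, filled where its adjusted p was under 0.05, and black bars are list medians. The floor plate list has 5 filled points below 0 and 1 above, and the dorsal list 6 above and 1 below.

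Beyond the 9 genes, genes reported elsewhere to respond to hedgehog signal were not uniformly higher. Of 16 tested, 2 rose (12.5%) and 4 fell (25%), with a median of -0.03, against 14.7% and 16% of all genes. Bcl2, a survival gene, rose by 0.42 ± 0.08, with 66.4 and 63.9 CPM in dKO and 47.9 and 49.8 CPM in WT. Ccnd1, a cyclin of the G1 phase, fell by 0.23 ± 0.03, with 617 and 632 CPM in dKO and 726 and 741 CPM in WT, and Sfrp1, a Wnt antagonist, fell by 0.24 ± 0.04. Ccnd2 fell by only 0.06 ± 0.02. These 4 genes were called under all 11 alternatives, and Foxm1 (0.17 ± 0.05, called in 9) and Snai1 (-0.70 ± 0.25, called in 6) were not. Nkx2-9, which neighbours Nkx2-2 in the ventral neural tube, had 4.96 and 5.15 CPM in dKO and 5.66 and 6.50 CPM in WT (-0.26, edgeR adjusted p = 0.47).

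Ventral and dorsal genes were set beside each other because Shh opposes dorsal identity. The ventral progenitor list also holds genes of intermediate domains, Irx3 and Dbx2 among them, so its counts do not follow Shh-induced genes alone. Both were among its genes that fell. Of 16 floor plate genes 1 rose and 5 fell (median -0.18), and of 18 genes of ventral progenitor domains none rose and 3 fell (median -0.06). Of 17 genes of dorsal domains 6 rose and 1 fell (median 0.14). All these medians stand against 0.003 for all genes. The share of genes lower was 31.3% for the floor plate list and 16.7% for the ventral progenitor list, the second of which is near the 16% of all genes. The share higher was 35.3% for the dorsal list, against 14.7% of all genes. In summed CPM, the floor plate genes gave 685 to 689 in dKO and 784 to 796 in WT, the ventral progenitor genes 515 to 516 in dKO and 549.9 to 551 in WT, and the dorsal genes 1097 to 1102 in dKO and 951 to 955 in WT.

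Nkx6-1, a homeobox gene of the ventral progenitors and on both ventral lists, had 18.3 and 17.7 CPM in dKO and 27.8 and 25.3 CPM in WT (-0.56 ± 0.13, edgeR adjusted p = 0.000113), and was called under all 11 alternatives. The floor plate gene Foxj1, a regulator of motile cilia, rose by 0.75 ± 0.14 and was also called in all 11. Foxa2, the transcription factor that turns on Shh in the floor plate, had 10.99 and 10.5 CPM in dKO and 12.2 and 16.0 CPM in WT and did not pass (-0.39 ± 0.17, edgeR adjusted p = 0.0632). Floor plate genes lower numbered 3 without dKO replicate 2 or WT replicate 2, and ventral progenitor genes lower numbered 1 without dKO replicate 2 or WT replicate 1. Slit3 (-0.53 ± 0.13) and Ntn1 (-0.16 ± 0.05) of the floor plate list and Irx3 (-0.23 ± 0.07) and Dbx2 (-1.18 ± 0.41) of the ventral list each lost the call in at least 1 alternative. Olig1, the neighbour of Olig2 on the chromosome, had 12.1 and 14.2 CPM in dKO and 13.2 and 11.3 CPM in WT (0.10, edgeR adjusted p = 0.698).

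Among dorsal genes, the homeobox gene Msx3 had 163 and 161 CPM in dKO and 107 and 104 CPM in WT, a log2 fold change of 0.62 ± 0.05 (edgeR adjusted p = 1.4e-27). Msx3, Zic1 and Zic2 were called under all 11 alternatives. The roof plate ligand gene Wnt1 (0.64 ± 0.23) and Olig3 (0.29 ± 0.08) rose but were called in 8 and 9 of 11, and Pax7 fell (-0.51 ± 0.15, called in 8 of 11).

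Of 22 genes of ventral neurons 3 rose and 3 fell (median 0.01), and the 27.3% called was near the 30.7% of all genes. The falls included Isl2, a motor neuron gene, with 1.91 and 2.96 CPM in dKO and 6.10 and 6.04 CPM in WT (-1.31 ± 0.30), and Phox2a (-1.01 ± 0.25), a gene of cranial motor neurons and noradrenergic neurons. Isl2 was called under all 10 alternatives run on it. Phox2a was called under all 11, as was Foxp1, which rose (0.27 ± 0.05). The rise of Evx2 (0.90 ± 0.30) was called in 6 of 10. For the primary cilium, 1 of 57 genes rose and 8 fell (median -0.02), so that 15.8% were called, below the 30.7% of all genes. Kifap3, which joins kinesin to its ciliary cargo, fell by 0.50 ± 0.08 and Ift27 by 0.44 ± 0.11, and these 2 were called under all 11 alternatives. The count of cilium genes lower was 2 by DESeq2, 3 without dKO replicate 2, and 4 without WT replicate 1 or WT replicate 2.

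Since Lin28 proteins restrain let-7, the 3' UTRs of the 9 genes were searched for the 7 bases CTACCTC, which pair with bases 2 to 8 of let-7. The microRNA is shown with that seed in capitals (RefSeq, GRCm38.p6, chr13:48538239-48538260, minus strand), and below it are 3 stretches of 3' UTR from genes around the pathway that hold the match and fell in dKO total RNA, with the match in capitals (GENCODE M21, GRCm38; Scube3 chr17:28172227-28172249, plus strand; Stk36 chr1:74636171-74636193, plus strand; Ntn1 chr11:68212757-68212779, minus strand).
let-7a-5p: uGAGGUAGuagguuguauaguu
Scube3: ccagcctggagctacCTACCTCt
Stk36: ccttaagggaaaaaaCTACCTCt
Ntn1: gaggacaagacatagCTACCTCa

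None of the 9 genes held the match in the 3' UTR of its longest coding transcript, and these 3' UTRs were 165 bases (Gli1) to 6480 bases (Hhip) long. Over 20947 protein-coding genes the match was present in 8.85%, and among 3' UTRs of like length (80 to 125% of the member's) in 0.96% for Gli1 and 33.7% for Hhip. Of the genes on the 8 lists around the pathway, 19 tested genes held the match, of which 5 fell (Scube3, Stk36, Snai1, Ntn1 and Iqcb1) and 2 rose (Wnt1 and Tmem231), with a median of -0.08. Among the 159 without it, 27 fell and 18 rose, with a median of -0.02. Of all 14594 genes tested in total RNA, 16% fell and 14.7% rose. Of the 7 called genes with the match, only Scube3 kept its call under every alternative run. Iqcb1 and Tmem231 of the cilium list were named for the match and after their values were seen. A match is only a run of letters and does not show a working site.

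The promoter windows of the genes, 250 bases before to 50 bases after the start in RefSeq, were searched on both strands for the GLI consensus GACCACCCA. Of the 7 genes with a window none held it, exactly or with up to 1 mismatch, against 0.253% of 32851 windows with an exact match and 6.74% with up to 1 mismatch. Shh and Gli1 had no entry. The search says only that these letters are not in those windows.

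In polysomal RNA the 5 listed genes parted: Shh, Ptch1 and Smo were higher and Hhip and Gli3 lower in dKO embryos. All 5 were called, but so were 99.7% of the 5777 genes tested, so that nothing can be read from the calls. Of the genes that averaged 100 reads or more, none had a raw log2 ratio of dKO to WT reads between -2.04 and -1.71, where the log2 ratio of library sizes, -1.92, lies, with 2927 genes below this gap and 2514 above it. The table thus looks like a list picked for a genotype difference in polysomal RNA, although how its genes were chosen is not given in the sources used here. Polysomal fold changes, their scaling and every comparison that uses the dKO and WT polysomal libraries together are conditioned on that choice, and are given here as descriptions of the listed genes with no p-value. Over all genes, the median was -0.35 with TMM scaling, -0.11 with RLE scaling and -0.51 with column totals, and the 5 directions were the same under each. Summed counts over listed genes were 3740980 and 5164982 in dKO, against 14874143 and 15414712 in WT, and the ribosomal precursor transcript Rn45s took 9.52% and 4.58% of the counts in the dKO libraries. The dKO polysomal replicates also differed most from each other, with a chi-square of 24.97 per degree of freedom against 2.90 for the WT polysomal replicates.

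Smo had 1143 and 966 CPM in dKO polysomal RNA and 406 and 412 CPM in WT polysomal RNA, a log2 fold change of 1.37 ± 0.09. Shh had 138 and 115 CPM in dKO and 68.05 and 74.98 CPM in WT (0.82 ± 0.13), the opposite direction to its total RNA. Ptch1 had 358 and 355 CPM in dKO and 259 and 254 CPM in WT (0.48 ± 0.06), close to its value in total RNA. The genotypes did not overlap for any of these genes, and the share of all listed genes without overlap was not counted.

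Gli3 had 330.0 and 342 CPM in dKO polysomal RNA and 477 and 482 CPM in WT polysomal RNA (-0.51 ± 0.06). Hhip rested on few reads, 26 and 12 in dKO against 234 and 245 in WT, or 7.65 and 2.36 CPM in dKO against 14.9 and 15.03 CPM in WT. Its log2 fold change was -1.68 ± 0.47, and it ranged from -2.66 without dKO replicate 1 to -0.999 without dKO replicate 2. In CPM per kilobase, the order in dKO polysomal RNA was Smo (187.6), Shh (44.5), Gli3 (35.1), Ptch1 (25.1) and Hhip (0.551), and in WT polysomal RNA Smo (72.8), Gli3 (49.98), Shh (25.1), Ptch1 (18.1) and Hhip (1.65), where no neighbours overlapped. Per kilobase of the longest coding transcript, Shh (44.5 CPM) overlapped both Ptch1 (46.1) and Gli3 (41.1) in dKO polysomal RNA, while Ptch1 and Gli3 stayed apart. In WT polysomal RNA, Gli3 (58.7), Ptch1 (33.2) and Shh (25.1) did not overlap.

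**Figure D4:**
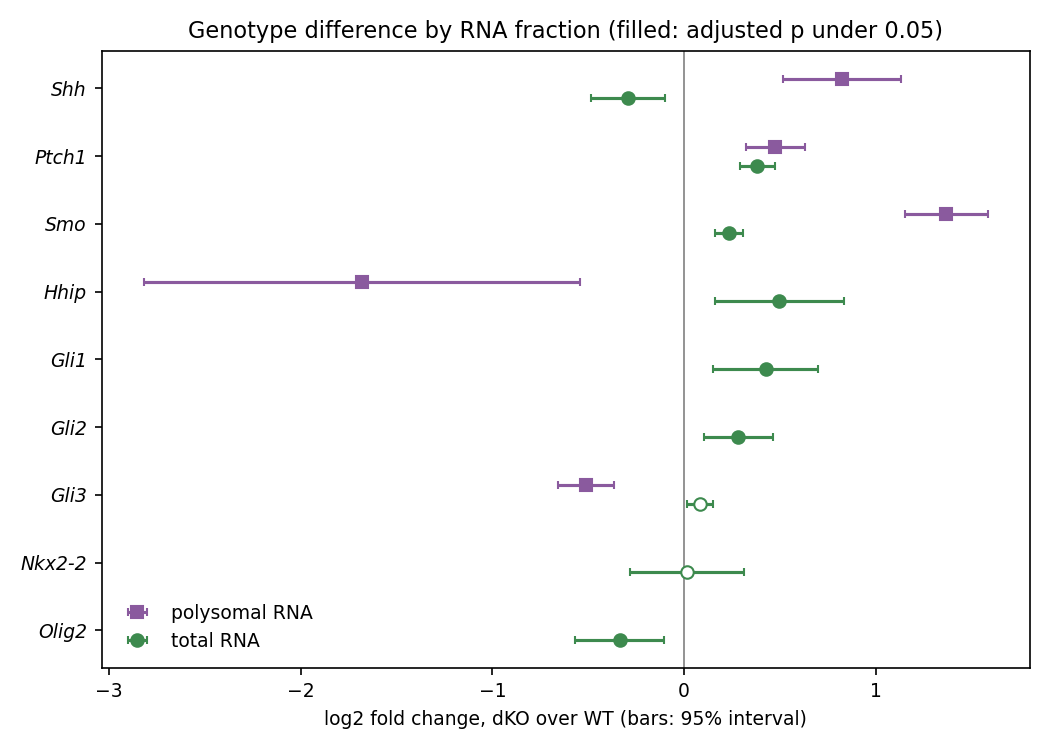
Log2 fold change of dKO over WT with 95% intervals for each gene, in polysomal RNA (squares) and total RNA (circles); filled symbols had an adjusted p under 0.05, and 4 genes have no polysomal value here. Shh lies at 0.82 in polysomal and -0.29 in total RNA, and Hhip at -1.68 in polysomal and 0.49 in total RNA.

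The genotype difference in polysomal RNA was set against that in total RNA by an interaction term in 1 fit of all 8 libraries, in which 89.5% of 5768 genes passed. Since the listed genes look chosen for one of the differences compared, the term describes them and tests nothing. The polysomal difference exceeded that of total RNA by 1.17 ± 0.10 on the log2 scale for Smo and by 1.15 ± 0.18 for Shh. It was below that of total RNA by a log2 difference of -0.56 ± 0.07 for Gli3 and -2.16 ± 0.44 for Hhip. For Ptch1 the term was 0.13 ± 0.09 (interval -0.07 to 0.34). It was 0.26 with RLE scaling and -0.05 with column totals, so that its sign depended on the scaling.

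Within a genotype, polysomal RNA was set against total RNA. The polysomal libraries used here also enter the genotype difference for which the listed genes look picked. The calls below, and the shares over all genes, are thus conditioned on that choice and describe the listed genes only. In dKO embryos 5 of 5 genes were called, where 90% of genes were, with log2 differences of 1.246 ± 0.13 for Shh, 1.06 ± 0.07 for Smo, 0.19 ± 0.07 for Ptch1, -0.62 ± 0.05 for Gli3 and -2.13 ± 0.35 for Hhip. The value of Ptch1 was 0.16 without dKO total replicate 1. With column totals it was 0.07 and not called (edgeR adjusted p = 0.388). That of Hhip ranged from -3.07 without dKO polysomal replicate 1 to -1.40 without dKO polysomal replicate 2. In WT embryos 0 of 5 were called by edgeR or by DESeq2, where edgeR called 11.9% of genes, and 0 had an unadjusted edgeR p under 0.05. These WT values were 0.10 for Shh, 0.06 for Ptch1, -0.11 for Smo, 0.03 for Hhip and -0.07 for Gli3. Smo passed without dKO polysomal replicate 1 (-0.11, adjusted p = 0.00862) or without dKO polysomal replicate 2 (-0.11, edgeR adjusted p = 0.00573), where the spread is estimated from the remaining libraries.

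The ratio of genes inside each library needs no scaling and shows the same parting. Gli3 reads per Shh read in polysomal RNA were 2.39 and 2.97 in dKO and 7.004 and 6.43 in WT, whereas in total RNA they were 8.56 and 11.2 in dKO and 7.96 and 7.10 in WT. Hhip reads per Shh read in polysomal RNA were 0.0553 and 0.0205 in dKO and 0.218 and 0.200 in WT. Ptch1 reads per Smo read in polysomal RNA were 0.313 and 0.368 in dKO and 0.639 and 0.615 in WT. In each of these polysomal ratios the dKO libraries were below the WT libraries. Smo reads per Shh read went the other way, at 8.27 and 8.37 in dKO polysomal RNA and 5.96 and 5.50 in WT polysomal RNA. Gli3 and Hhip lay below the gap in raw ratios and Shh above it, so the direction of their ratios to Shh follows from that and is no separate result.

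The base composition of the transcripts moved with these differences. Over 5572 polysomal genes with a value, the log2 fold change of dKO over WT and the GC content of the transcript had a Spearman rho of 0.774 across genes, which share the same 4 libraries. The 5 genes fell in the same order by both: GC content was 57.8% for Smo, 52.3% for Shh, 50.2% for Ptch1, 48.4% for Gli3 and 41.2% for Hhip. With a GC curve taken out of each library, the polysomal log2 fold changes were 0.43 for Smo, 0.45 for Shh, 0.47 for Ptch1, -0.21 for Gli3 and -0.53 for Hhip, which was no longer past the threshold.

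The interaction terms moved likewise under the GC curve. They were 0.75 for Shh, 0.22 for Smo, -0.33 for Gli3, 0.07 for Ptch1 and -1.06 for Hhip. Against total RNA in dKO embryos, Smo was then at 0.11 and Ptch1 at 0.13, both no longer past the threshold. The part of base composition, of the ribosomal precursor reads and of the sequencing of these libraries in the differences was not tested further.

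**Figure D5:**
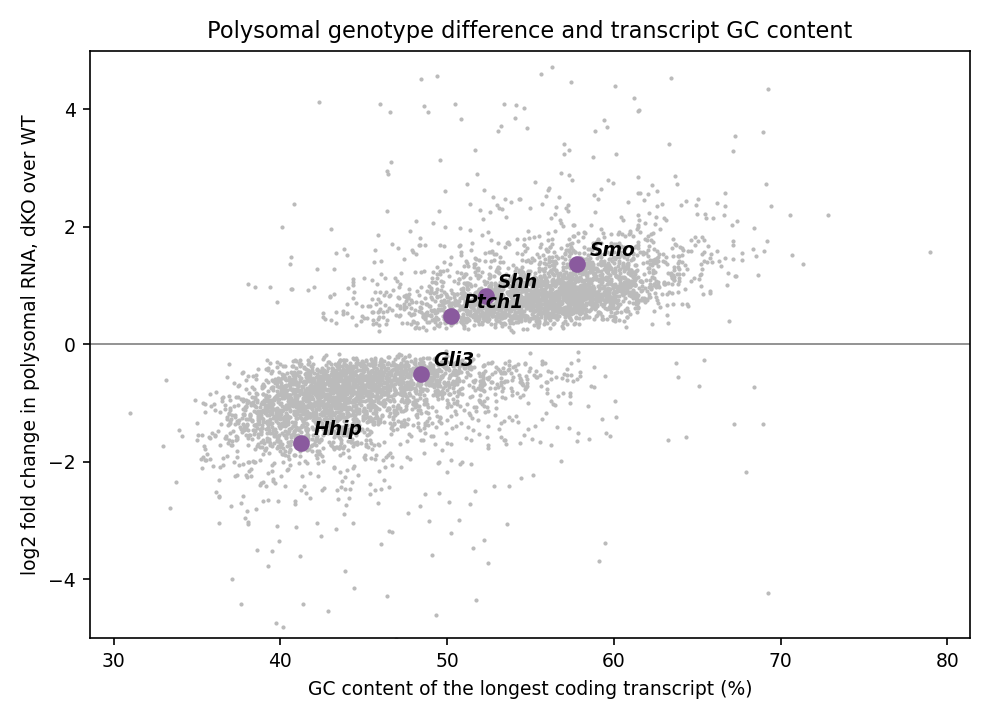
Log2 fold change of dKO over WT in polysomal RNA against transcript GC content; grey points are 5572 genes, of which 54 lie beyond the axis limits, and labelled points are the 5 pathway genes. Smo, at 57.8% GC, is the highest of the 5 and Hhip, at 41.2% GC, the lowest, along the slope of the grey points.

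Of the genes around the pathway, 68 were tested in polysomal RNA and all 68 were called, 42 higher and 26 lower, against 99.7% of all genes. The 7 tested floor plate genes and the 7 tested ventral progenitor genes were all higher in dKO polysomal RNA, Nkx6-1 among them (61.1 and 45.5 CPM in dKO, 33.5 and 33.4 CPM in WT), though it was lower in dKO total RNA. Of 9 dorsal genes 8 were higher and 1 lower, and of 20 cilium genes 4 were higher and 16 lower. Over all 5777 genes tested, 47.2% were higher and 52.5% lower. Since the table looks picked for a genotype difference and its fold changes moved with GC content, these counts describe the listed genes only. With the GC curve taken out, 24 of the 68 were called, where 2770 of all 5777 genes tested were.

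The genes whose profiles were closest to each member were found by Euclidean distance between log2 CPM profiles centred on the gene mean. Over the 8 libraries and 5593 genes they were Gadd45gip1, Psmg3 and Dapk3 for Shh (distance 0.199 to 0.245), Ndst1, Pogk and Tshz1 for Ptch1 (0.117 to 0.168), Mex3d, Tmem223 and H2-Ke6 for Smo (0.123 to 0.141), Chtop, Ccz1 and Zyg11b for Gli3 (0.0895 to 0.107) and Mipol1, Zfp930 and Kctd12b for Hhip (0.463 to 0.577). Hhip thus had no neighbour as close as those of the other 4 genes. Over the 4 total RNA libraries and 11535 genes the closest were Kdm5d for Gli1 (0.0157), Wdr34 for Gli2 (0.0101), Rabep2 for Nkx2-2 (0.0162) and Umps for Olig2 (0.0127). No gene of the pathway lists was among them, though these lists do not hold every gene linked to the pathway or the cilium. With 4 or 8 points, such likeness is a description only. Kdm5d lies on the Y chromosome, and the sex of the embryos in each library was not examined here.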

How the data were processed

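Total and polysomal RNA were sequenced in 8 libraries. For each fraction the authors deposited 1 table of raw counts by gene symbol, in whole numbers. The submitters' processing notes name 3 tools (TopHat, HTSeq, FastQC) and, as builds, mm9, mm10 and GRCm38, without roles. Per the labels' protocols, libraries were strand-specific. The annotation is not given in the sources used here, nor are the strand setting of the counting and the choice of genes in the polysomal table. The series text speaks of 3 groups and the sample labels give 4, which were followed. Column totals are given with the results, and 0 columns were left unmapped.

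The genes studied and the lists around them were chosen with earlier results of these data known. Each whole table was filtered with filterByExpr, scaled by TMM and tested with the quasi-likelihood F test of edgeR 4.0.16 (R 4.3.3), with Benjamini-Hochberg adjustment and 0.05 as the threshold. For a genotype comparison, only the 4 libraries of that fraction were fitted. Fractions and the interaction used 4 group means over 5790 shared genes, of which 5768 were tested. SE is the absolute log2 fold change over the square root of F, and intervals are 95% intervals from the t distribution. CPM uses TMM-scaled library sizes, which in polysomal RNA rest on the listed genes. Exon length, transcript GC content and 3' UTRs came from GENCODE M21 (GRCm38), and coordinates are those of GRCm38. All 222 list symbols were matched in total RNA. The pipeline was tested on simulated counts.

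Named were the 9 genes, Lin28a and Lin28b, up to 6 called genes per list by size of change (mean of at least 1 CPM), 11 core genes of the pathway whether called or not, and the 3 nearest profiles; other called list genes were named after their values were seen. Some genes that enter the list counts are not reported here by name. Alternatives were RLE and column-total scaling, DESeq2 1.42.0, a filter at 5 CPM on average and none at all, a block for replicate number, a GC curve (loess, span 0.5) as an offset, all 8 libraries in 1 fit, and each library left out; transcript length in place of exon length was added after seeing the data. Replicates with the same number did not deviate together (correlation -0.04 in total and 0.06 in polysomal RNA), so the main fits have no block.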

Additional observations from a re-analysis of the deposited data

Results flagged for a closer look

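For 4 genes the genotype difference differed between polysomal and total RNA by the interaction term of the fit of all 8 libraries. The genes of the polysomal table look chosen for a genotype difference in that fraction, so the term is conditioned on the outcome and is a description of listed genes only. The log2 difference was 1.17 for Smo, 1.15 for Shh, -0.56 for Gli3 and -2.16 for Hhip. Of all 5768 genes tested, 89.5% passed the same term. After the GC curve 3 of the 4 passed (Smo, Shh and Gli3), where 2441 of the 5768 genes did. The GC content of the 4 transcripts followed the same order, and its part in these differences was not tested further. Groups of 2 libraries are too small for a check of single outlying libraries.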

How the results depend on the processing

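In total RNA, 7 members were called, against 2 by DESeq2, 2 in the fit of all 8 libraries (where 5 were tested) and 4 to 5 with a library left out. Genes around the pathway numbered 53 called, against 35 by DESeq2 and 35 to 45 with a library left out. The 53 were among 182 tested, a share near the 30.7% of all genes (4485 of 14594). The count thus does not set the genes around the pathway apart from the rest. By DESeq2, 2944 of all 11764 genes tested were called. In polysomal RNA, 24 of the genes around the pathway were called with the GC curve, against 68, where 2770 of all 5777 genes were called with it. For polysomal against total RNA, 3 members were called in dKO with the GC curve, against 5, where 3299 of all 5768 genes were called with it. In WT 0 members were called, and leaving a library out moved that only for Smo. No called member changed direction under any alternative run. The replicate block, a paired fit by replicate number, called 7 members in total RNA and 5 in polysomal RNA; it changed no member's call in any comparison, and with 2 pairs the numbers are not known to pair libraries. Where a library left 1 sample in a group, that sample was assumed to vary like the others. Low counts limit Hhip, with 12 reads in a dKO polysomal library. The causes of these shifts were not tested.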
